A study of Homo sapiens with 5 samples.

Results

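The 10 loci described here belong to genes that switch activin and TGF-β signalling off again: BAMBI, PMEPA1, LDLRAD4, SMAD7, SMAD6, SMURF1, SMURF2, SKI, SKIL and TGIF1. SMAD2-bound DNA was sequenced by ChIP-seq from T47D, an estrogen receptor-positive line of the luminal breast cancer type. In 2 libraries the cells had received palbociclib, an inhibitor of the kinases CDK4 and CDK6, at 1 µM for 24 h and activin A at 50 ng/ml for 1.5 h, and in 2 libraries activin A at 50 ng/ml for 1.5 h alone. They are called palbociclib and activin libraries below, and all 4 come from activin-treated cells. Whether replicates are separate cultures is not labelled, and their spread may be technical only. Each library is represented by the authors' list of peak summits, single-base positions on hg19 with a score. The score was read as −log10 q against an input for which no treatment is listed. The comparison asks whether palbociclib changes where SMAD2 is found at these genes.

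A locus was the gene's hg19 span, given to the kilobase, with 20 kb added on each side. Summits of the 4 lists at most 200 bp apart were chained into regions, and 182 of the 115321 regions of the series touched the 10 loci. The spans differed in length from the genes' RefSeq entries on another build by at most 3.03 kb, the largest difference being that of SMURF2, so a distance to the 5′ end of a span carries an error of this order. Which gene a summit serves was not tested. The cell line itself could not be checked against marker genes, as summit lists hold no expression values. Just inside the 20 kb limit (15 to 20 kb from a span) lay 2 regions, at SKI and SMURF2, with a highest score of 7.11, and just outside (20 to 25 kb) lay 4, at SMAD6, SKI and SMAD7, with a highest score of 19.1. None of these 6 was found in all 4 libraries.

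Activin binds paired type II and type I receptor kinases, and the type I receptor phosphorylates SMAD2 and SMAD3, which join SMAD4 and act on genes in the nucleus. The inhibitors act at each step. BAMBI is a pseudoreceptor without kinase domain, and PMEPA1 and LDLRAD4 are related membrane proteins that bind SMAD2 and SMAD3 and keep them from the receptor. SMAD7 and SMAD6 are inhibitory SMADs that occupy the type I receptors, SMAD6 mainly those of the BMP branch. SMURF1 and SMURF2 are HECT-type ubiquitin ligases that mark receptors and SMADs for degradation. SKI, SKIL (also called SnoN) and TGIF1 bind SMAD complexes on DNA and bring in co-repressors. Several of these genes are themselves known targets of SMAD complexes, which closes a negative feedback loop.

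In 4 genes with a single RefSeq start site, a region found in all 4 libraries lay within 1 kb of the 5′ end of the span. The 250 bases before those start sites are shown because these regions lie near the 5′ end of the span. They are RefSeq sequences on GRCh38.p14, while the summits are on hg19, so no summit is placed on a letter. The windows are BAMBI at chr10:28677271-28677520 (plus strand), SMAD6 at chr15:66701986-66702235 (plus strand), SMURF1 at chr7:99144109-99144358 (minus strand) and SKIL at chr3:170357465-170357714 (plus strand). Capitals mark CAGAC, the short SMAD box, GGCGCC, a GC-rich SMAD motif, and GTCTAGAC, the palindromic SMAD-binding element, each on either strand; CAGAC reads GTCTG on the opposite strand.
BAMBI: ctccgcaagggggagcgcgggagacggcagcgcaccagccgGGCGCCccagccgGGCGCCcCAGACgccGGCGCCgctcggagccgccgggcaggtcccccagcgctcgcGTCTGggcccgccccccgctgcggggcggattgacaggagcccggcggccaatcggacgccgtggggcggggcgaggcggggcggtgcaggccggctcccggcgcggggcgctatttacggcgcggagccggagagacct
SMAD6: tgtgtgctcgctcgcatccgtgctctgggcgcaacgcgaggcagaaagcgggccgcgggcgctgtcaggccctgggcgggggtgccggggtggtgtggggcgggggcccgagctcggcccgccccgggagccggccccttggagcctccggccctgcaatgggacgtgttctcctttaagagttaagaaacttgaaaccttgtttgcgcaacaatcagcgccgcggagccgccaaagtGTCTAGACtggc
SMURF1: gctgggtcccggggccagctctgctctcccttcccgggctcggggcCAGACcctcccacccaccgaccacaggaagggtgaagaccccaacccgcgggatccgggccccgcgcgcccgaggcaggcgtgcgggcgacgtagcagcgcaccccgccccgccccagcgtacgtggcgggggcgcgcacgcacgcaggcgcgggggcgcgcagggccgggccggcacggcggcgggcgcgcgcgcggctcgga
SKIL: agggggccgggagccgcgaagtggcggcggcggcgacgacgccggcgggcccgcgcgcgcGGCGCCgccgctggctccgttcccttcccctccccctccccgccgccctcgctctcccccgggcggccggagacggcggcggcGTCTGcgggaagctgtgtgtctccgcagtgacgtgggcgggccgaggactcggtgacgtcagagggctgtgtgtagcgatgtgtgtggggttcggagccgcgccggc

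The palindrome GTCTAGAC occurred once, in the SMAD6 window, close to its 3′ end. It was present in 64 of the 35116 RefSeq windows of this length (0.182%). The BAMBI window held 3 copies of GGCGCC and 2 of CAGAC, the SKIL window 1 of each, and the SMURF1 window 1 CAGAC. Over all RefSeq windows, 38% held CAGAC and 16.4% held GGCGCC. RefSeq windows were found for 9 of the 10 genes, 28 in all, because LDLRAD4 has 9 start sites, TGIF1 7, PMEPA1 4 and SMAD7 3; SKI had no entry. Of these 28, 16 held CAGAC and 3 held GGCGCC. The AP-1 motif TGANTCA was found in 1 (TGIF1), the forkhead motif TGTTTAC in 1 (LDLRAD4) and the GATA motif AGATAA in 2 (LDLRAD4 and TGIF1), against 6.57%, 2.98% and 9.17% of all windows. A match of letters is no evidence of binding there.

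Every one of the 10 loci held SMAD2 summits in every library, and together they had about as many as the lengths of the lists would give. The palbociclib libraries listed 100 and 99 summits in the 10 loci, against 82 and 79 in the activin libraries. All summits on the 23 chromosomes analysed numbered 62960 and 65207 with palbociclib, against 51535 and 54243 with activin, which makes the lists 1.21-fold longer and the loci count 1.24-fold higher with palbociclib. Per 10000 listed summits, the loci held 15.5 ± 0.5 with palbociclib and 15.2 ± 1.0 with activin (SD, n = 2 each). The log2 ratio of these means was 0.03, the groups overlapped, and the exact two-sided permutation test over 4 libraries gave p = 1. With 2 against 2 libraries this test cannot give less than 0.333, and a threshold of 0.05 is therefore out of reach for all tests below. Read depth is unknown, and summit numbers vary with it.

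The loci were denser in summits than the genome. Palbociclib libraries listed on average 7.02 summits per 100 kb in the loci and 2.18 over the genome between the first and last summits of each chromosome. Activin libraries listed 5.68 per 100 kb in the loci and 1.80 over the genome. The genome includes regions without genes, and no set of other genes could be placed on hg19 for comparison. Density differed widely among the members, with 22.5 summits per 100 kb at SKIL and 2.23 at SMURF1 in palbociclib libraries, against 17.5 and 1.27 in activin libraries.

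**Figure D1:**
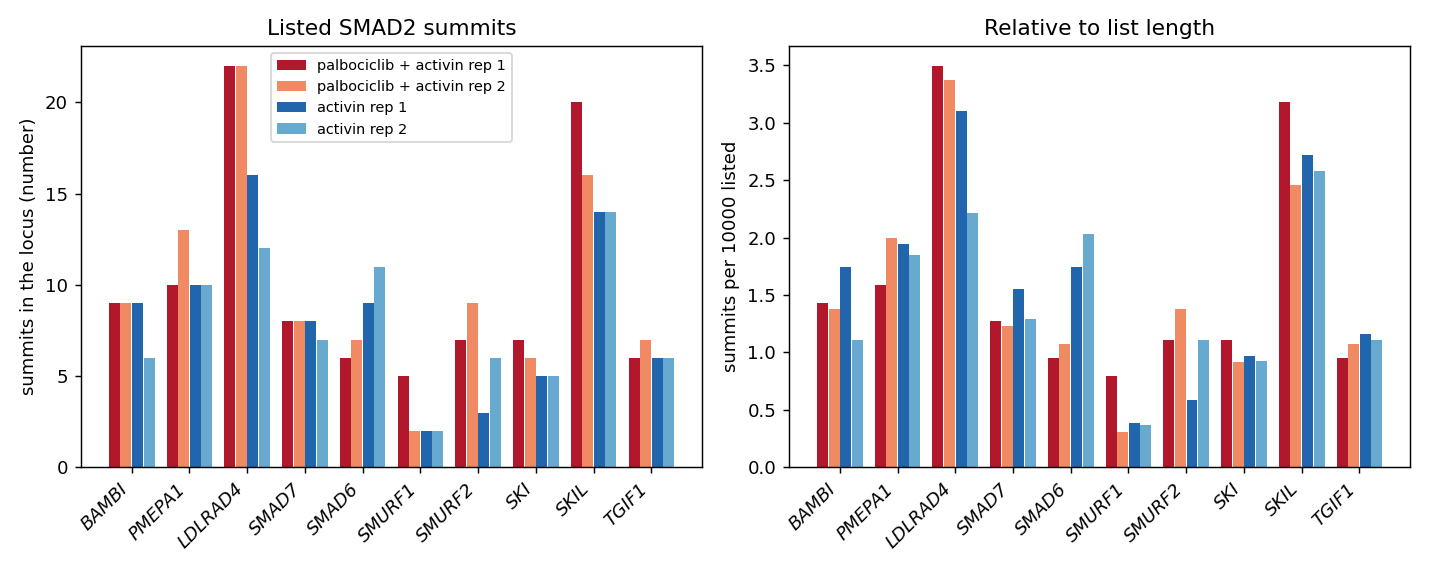
Number of SMAD2 summits (left) and summits per 10000 listed summits (right) at each of the 10 loci, 1 bar per library (replicates 1 and 2 of palbociclib plus activin, then of activin). LDLRAD4 has 22 and 22 summits with palbociclib against 16 and 12 with activin, and SMAD6 6 and 7 against 9 and 11.

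The members went different ways relative to list length. LDLRAD4 and SMURF2 had more summits per 10000 listed in both palbociclib libraries than in either activin library, and SMAD6, SMAD7 and TGIF1 had fewer. These counts, 2 and 3 of 10, lie near the background: of the 6933 windows of 100 kb with at least 10 summits over the 4 lists, 20.9% were higher with palbociclib without overlap and 19.8% lower. By means, 5 loci had a log2 ratio above 0 and 5 below. In raw numbers, 9 of 10 had more summits on average with palbociclib, the exception being SMAD6. The lists themselves were 1.21-fold longer with palbociclib, and no share of all windows was computed in raw numbers.

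LDLRAD4 held 22 and 22 summits in the palbociclib libraries, against 16 and 12 in the activin libraries. Relative to list length these were 3.43 ± 0.09 per 10000 with palbociclib and 2.66 ± 0.63 with activin (SD, n = 2 each), a log2 ratio of 0.37 (exact permutation p = 0.333). Without activin replicate 2 the log2 ratio was 0.145, and with only scores of at least 5 kept it was 0.102 and the groups overlapped (exact permutation p = 1). SMURF2 had 7 and 9 summits with palbociclib, against 3 and 6 with activin, with a log2 ratio of 0.56 (exact permutation p = 0.333). Its direction turned to −0.11 when only scores of at least 5 were kept, and with lists of equal length the ratio was 0. Most SMURF2 summits lay past the 3′ end of the span, with 5 and 6 there with palbociclib, against 2 and 3 with activin. Near its 5′ end lay 2 and 3 with palbociclib, against 1 and 3 with activin. SMURF1 had 5 and 2 summits with palbociclib, against 2 and 2 with activin, and the groups overlapped. Its log2 ratio was 0.54, and −0.30 without palbociclib replicate 1, the library that listed 3 summits upstream of the 5′ end with scores of 2.89 to 5.98. With only scores of at least 5 kept the ratio was 0.0223, and without flank it was −0.684.

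SMAD6 was the member with fewer summits after palbociclib on every scale. It held 6 and 7 summits in the palbociclib libraries, against 9 and 11 in the activin libraries. Per 10000 listed this was 1.01 ± 0.09 with palbociclib and 1.89 ± 0.20 with activin (SD, n = 2 each), a log2 ratio of −0.90 (exact permutation p = 0.333, the smallest possible). The log2 ratio stayed between −1.0 and −0.48 over all alternatives tried. This concerns the number of summits, and 12 of the 20 SMAD6 regions were listed by a single library. The SMAD6 region found in all 4 libraries scored 143 and 135 with palbociclib, against 112 and 94.6 with activin. SMAD7, the other inhibitory SMAD, had 8 and 8 summits with palbociclib, against 8 and 7 with activin. Per 10000 listed these were 1.25 ± 0.03 with palbociclib and 1.42 ± 0.19 with activin (SD, n = 2 each), a log2 ratio of −0.19 (exact permutation p = 0.333). In raw numbers the ratio turned to 0.0931 and at equal list lengths it was −0.0995, with overlapping groups in both, while it was −0.301 with scores of at least 5 and −0.858 without flank, with no overlap in either.

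The nuclear co-repressors and the other membrane proteins differed little with the 20 kb flanks included. SKIL, the densest locus, had 20 and 16 summits with palbociclib, against 14 and 14 with activin. The log2 ratio per 10000 listed was 0.09, and the groups overlapped. SKI had 7 and 6 with palbociclib, against 5 and 5 with activin. Its log2 ratio per 10000 listed was 0.10 with overlapping groups, and −1.85 without flank, with no overlap. From 3.85 kb upstream to 1.56 kb downstream of the SKI 5′ end lay 1 and 2 summits with palbociclib, against 4 and 3 with activin. At 80.45 to 90.23 kb, mostly past its 3′ end, lay 5 and 4 with palbociclib, against 1 and 2 with activin. TGIF1 had 6 and 7 with palbociclib, against 6 and 6 with activin. TGIF1 was lower per 10000 listed with a log2 ratio of −0.16, which turned to 0.115 in raw numbers and to 0.116 with scores of at least 5, and was 0 at equal list lengths. PMEPA1 had 10 and 13 with palbociclib, against 10 and 10 with activin, and BAMBI had 9 and 9 with palbociclib, against 9 and 6 with activin. The log2 ratio per 10000 listed was −0.08 at PMEPA1 and −0.02 at BAMBI, and the groups overlapped at both. Without flank the ratio at PMEPA1 was −0.396, with no overlap.

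Sites found in every library made up a smaller part of the regions at these loci than over the whole series. Of the 182 regions, 27 (14.8%) held a summit in all 4 libraries, against 20.4% of all regions. LDLRAD4 had 7 of the 27, SKIL 5, SMAD7 4, PMEPA1 and TGIF1 3 each, BAMBI 2, and SMAD6, SMURF1 and SKI 1 each. SMURF2 had none. A single library listed 94 regions (51.6%), of which 35 and 25 were from palbociclib replicates 1 and 2, and 14 and 20 from activin replicates 1 and 2. Over the whole series 50.8% of regions came from a single library.

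**Figure D2:**
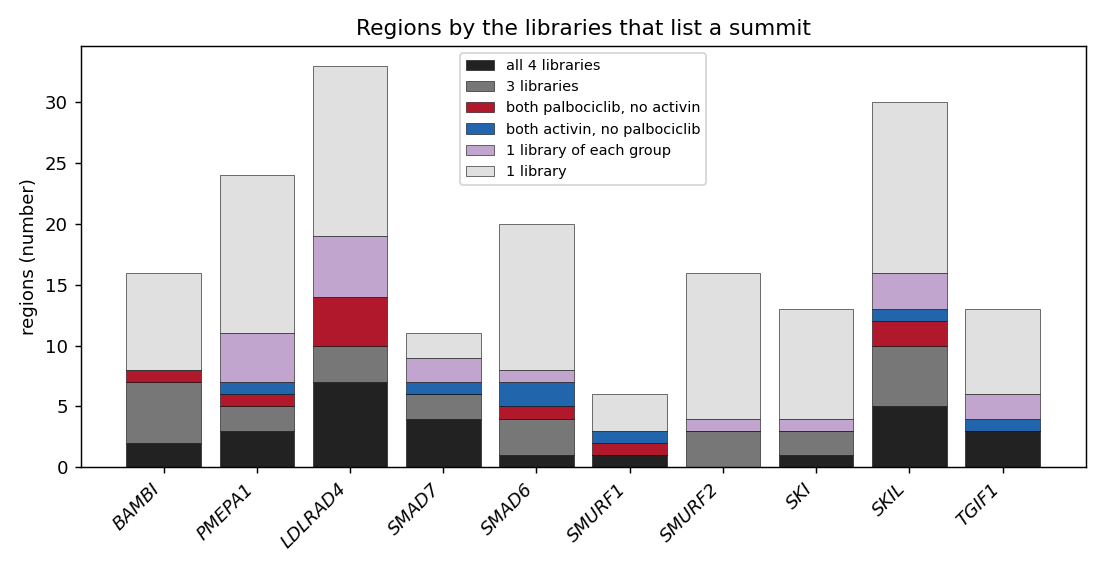
Number of regions at each locus, stacked by the libraries that list a summit in them: all 4, 3, both palbociclib libraries and no activin library, both activin libraries and no palbociclib library, 1 library of each group, or 1 library. All 4 libraries share 7 regions at LDLRAD4 and 0 at SMURF2, and regions of 1 library are the most numerous kind at 9 of the 10 loci.

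Recurrent sites lay near the 5′ ends of SMAD6, SMAD7, SMURF1 and SKI, and mostly inside the gene at LDLRAD4 and TGIF1. BAMBI had its 2 at 8.02 kb upstream and 0.54 kb inside. SKIL had sites 0.6 kb upstream and 3.89 kb inside, and the others past its 3′ end. LDLRAD4 has 9 RefSeq start sites and TGIF1 7. Distances to these on hg19 were not run, so whether an inner start lies beside such a site was not tested. Of the 27 recurrent regions, 7 lay within 1 kb of the 5′ end of the span and 11 within 5 kb. Inside the span lay 17, upstream of it 7 and past its 3′ end 3, all of them at SKIL. Among all 182 regions, 21 (11.5%) lay within 1 kb of the 5′ end, compared with 25.9% of the recurrent ones. These recurrent regions are part of the 182, so this is a description.

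**Figure D3:**
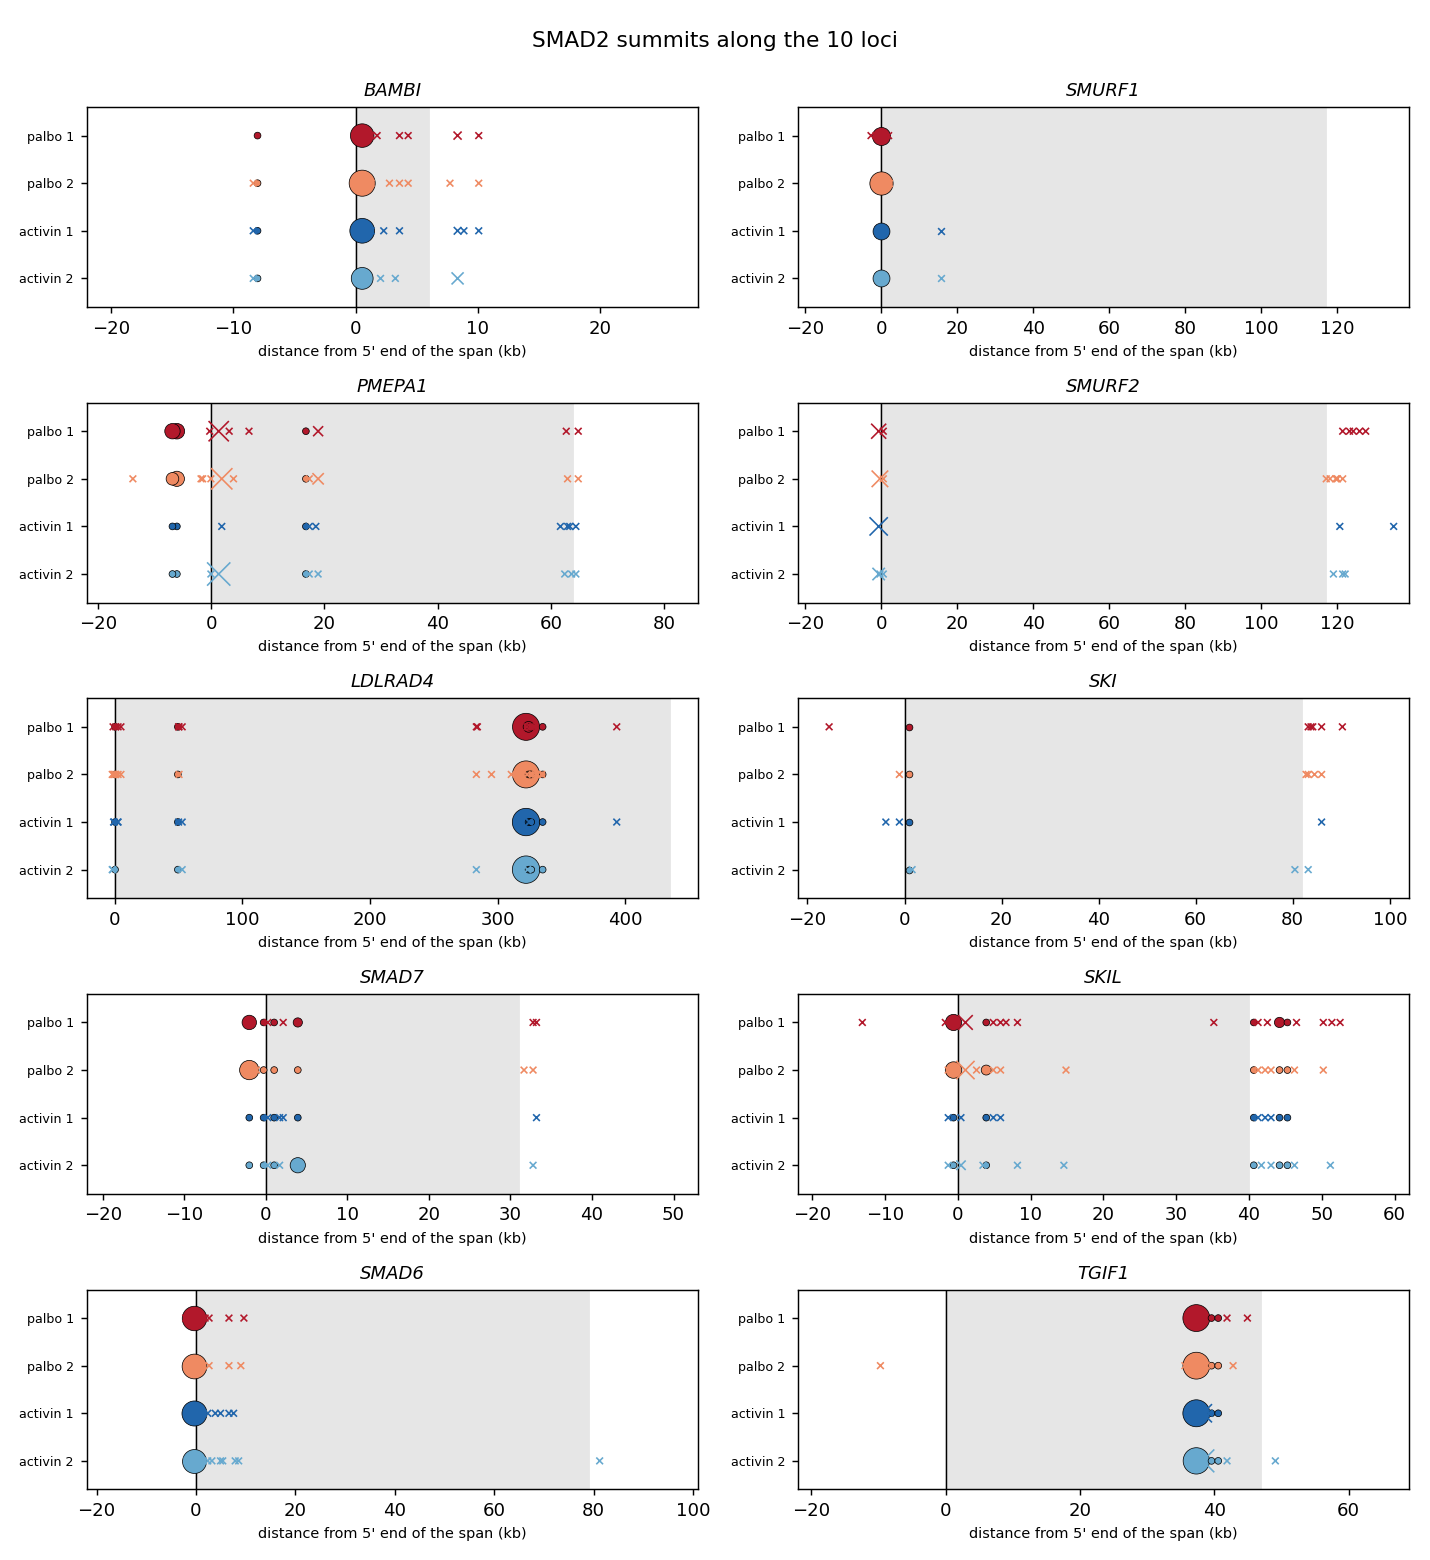
Position of each region in kb from the 5′ end of the span (shaded; transcription runs to the right), 1 row per library with palbociclib above activin. Circles are regions found in all 4 libraries and crosses other regions, and marker area grows with rank once a summit is in the strongest 20% of its list. The largest circles sit beside the 5′ end at BAMBI, SMAD6 and SMURF1, 322 kb into LDLRAD4 and 37.3 kb into TGIF1.

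The strongest or best recurrent region below is the one whose worst rank over the 4 libraries is the best. At LDLRAD4 the strongest of the 10 loci lay deep inside the gene. It spanned chromosome 18 from 13540270 to 13540305, 322 kb past the 5′ end of the span, and its summits ranked 573 and 587 in the palbociclib libraries, against 168 and 183 in the activin libraries. Its scores were 278 and 249 with palbociclib, against 276.45 and 276.5 with activin, and overlapped between the groups. As a percentage of the list, the ranks were 0.91 and 0.90 with palbociclib, against 0.33 and 0.34 with activin, without overlap. Among all 23476 recurrent regions, 8.84% ranked worse with palbociclib in this way and 39.3% better. With lists of equal length 17.8% of recurrent regions ranked worse and 22.6% better, and the strongest LDLRAD4 region ranked worse there too. Of the other recurrent LDLRAD4 regions, 4 lay downstream of this one, at 324 to 335 kb past the 5′ end, 1 was 49.5 kb past the 5′ end, and 1 was beside the 5′ end with scores of 15.6 and 7.0 with palbociclib, against 6.5 and 3.4 with activin.

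TGIF1 carried its recurrent sites in the 3′ part of the span, at an unknown distance from its 7 RefSeq start sites. The region on chromosome 18 from 3449303 to 3449343 ranked 695 and 783 with palbociclib, against 524 and 1045 with activin, and scored 261 and 224 with palbociclib, against 187 and 151 with activin. It belonged to the strongest 2% of every list, at 1.93% or better. At the next site downstream, 38.3 kb past the 5′ end, both activin libraries listed a summit with scores of 56.5 and 83.0 and ranks of 6147 and 3617, and neither palbociclib library listed one. The nearest palbociclib summit lay 517 bp away. Another recurrent TGIF1 region, from 3452532 to 3452637, was chosen after its values were seen: its summits stood at 20.5% and 20.4% of the palbociclib lists, against 58.9% and 78.9% of the activin lists.

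SMAD6 and BAMBI each had 1 strong recurrent region at the 5′ end. The SMAD6 region, on chromosome 15 from 66994587 to 66994695, lay 0.36 kb upstream of the span and ranked 2889 and 2740 with palbociclib, against 1949 and 2890 with activin. Its scores were 143 and 135 with palbociclib, against 112 and 94.6 with activin, and its percentiles overlapped between the groups. Each library listed 1 summit in this region. Another 18 of the 20 SMAD6 regions lay in the same stretch, from 2.05 kb upstream to 9.65 kb downstream of the 5′ end, and none of them was in every library. The BAMBI region, on chromosome 10 from 28966505 to 28966568, lay 0.54 kb inside the span and ranked 3671 and 1526 with palbociclib, against 2193 and 4338 with activin. With the regions at LDLRAD4 and TGIF1, these made 4 recurrent regions in the strongest 10% of every list (14.8% of 27), against 15.5% of all recurrent regions.

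SMAD7, SMURF1 and SKIL had moderate sites near the 5′ end. At SMAD7 the best recurrent region lay 2.04 kb upstream, on chromosome 18 from 46479004 to 46479073, with scores of 52.3 and 69.85 with palbociclib, against 31.1 and 19.1 with activin. Its ranks were 9742 and 7063 with palbociclib, against 10970 and 14960 with activin. Its worst percentile of 27.6 was close to the 29.5 of another recurrent SMAD7 region, from 46473065 to 46473116. That region scored 39.5 and 24.5 with palbociclib, against 19.7 and 43.0 with activin, and its percentiles overlapped between the groups. SKIL had its best one 0.60 kb upstream, on chromosome 3 from 170074365 to 170074436, ranked 8780 and 8922 with palbociclib, against 11081 and 14305 with activin. SMURF1 had a single recurrent region at the 5′ end of the span as given, on chromosome 7 from 98741960 to 98742003. It ranked 7669 and 4019 with palbociclib, against 6876 and 7220 with activin. At SKI the only recurrent region, 0.83 kb inside the span on chromosome 1 from 2160587 to 2161072, was weak, with scores of 6.55 and 8.17 with palbociclib, against 7.16 and 6.80 with activin.

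**Figure D4:**
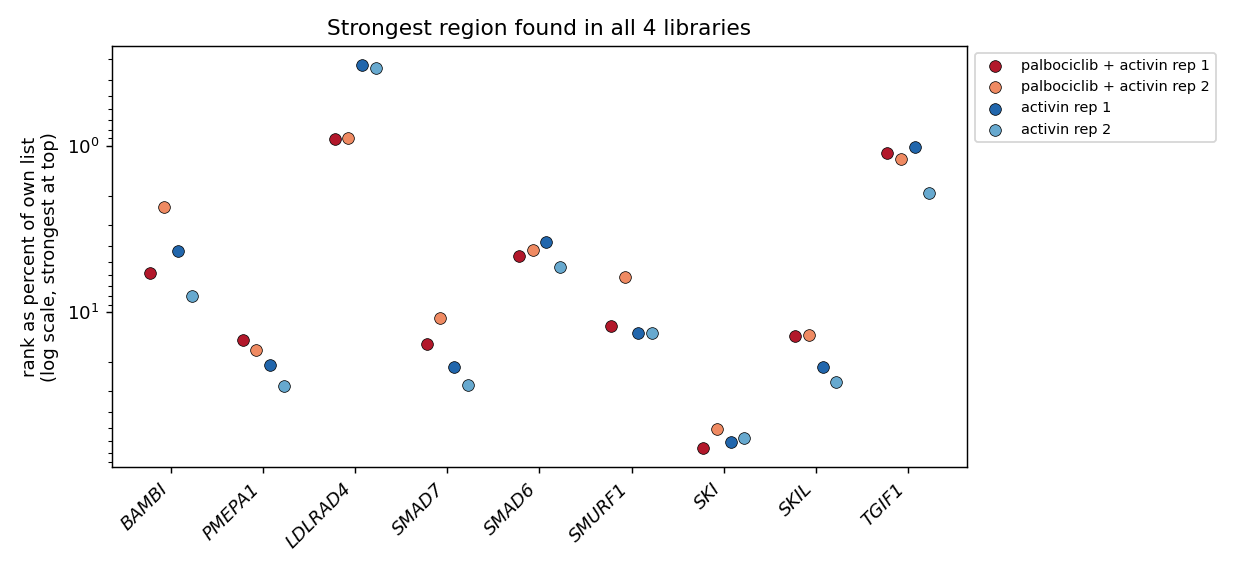
Rank of the strongest region found in all 4 libraries at each locus, as a percentage of the library's own list (log axis, strongest at the top), 1 point per library. LDLRAD4 and TGIF1 stand in the top 2% of every list and SKI beyond 50%; SMURF2 has no such region.

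Recurrent regions more often ranked better in both palbociclib lists than worse, at these loci as elsewhere. By percentile, 13 of the 27 ranked better without overlap and 1 worse, beside 39.3% and 8.84% of all recurrent regions. Among the strongest region of each of 9 loci, those at PMEPA1, SMAD7, SMURF1 and SKIL ranked better and that at LDLRAD4 worse. With lists of equal length, where a rank is divided by the same number in each library, 6 of 27 ranked better and 3 worse, beside 22.6% and 17.8% of all recurrent regions. Among the strongest regions of the 9 loci, those at SMAD7 and SKIL then ranked better and those at LDLRAD4 and SKI worse.

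PMEPA1 and SMURF2 showed how the same stretch was listed at different positions. Inside PMEPA1, 2 regions 495 bp apart each held a summit of 1 library of each group. Palbociclib replicate 1 and activin replicate 2 listed the one from 56285633 to 56285693 on chromosome 20, with scores of 85.3 and 87.5. Palbociclib replicate 2 and activin replicate 1 listed the one from 56285094 to 56285138, with scores of 85.9 and 26.8. These were the highest PMEPA1 scores of their libraries except in activin replicate 1. Neither region counted as recurrent. Of the PMEPA1 regions found in all libraries, the one with the best worst rank lay 6.83 kb upstream, from 56293775 to 56293883, with scores of 55.75 and 41.4 with palbociclib, against 31.9 and 18.9 with activin. Another one, from 56293025 to 56293073, scored higher in 3 of the 4 libraries, with 56.3 and 48.7 with palbociclib, against 11.1 and 29.0 with activin. RefSeq places the long non-coding RNA gene NKILA beside this end of PMEPA1. At SMURF2, summits at the 5′ end lay in regions 314 bp apart on chromosome 17, with scores of 54.2 in palbociclib replicate 1, 53.9 in palbociclib replicate 2, 56.5 in activin replicate 1 and 36.6 in activin replicate 2. The other SMURF2 summits were mostly in 13 regions at and past its 3′ end, where CEP95 is the neighbouring gene, and none of those 13 was found in all libraries.

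Regions of one treatment made up no smaller a share here than over the series, and most had a summit of the other treatment within 1 kb. Regions listed by both palbociclib libraries but not by an activin library numbered 10 (5.49% of 182, against 5.29% of all regions). Regions listed by both activin libraries but not by a palbociclib library numbered 7 (3.85%, against 2.22% of all regions). Of these, 8 of 10 and 5 of 7 had one of the other treatment's summits within 1 kb, at median distances of 535 and 517 bp. The same share over all regions of one treatment in the series was not computed. These loci are denser in summits than the genome, and whether the counts are particular to these loci was not tested. LDLRAD4 had 4 of the palbociclib regions and none of the activin regions.

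The strongest region of the palbociclib libraries alone was at SKIL, and that of the activin libraries alone was the TGIF1 region described above. At SKIL regions of both kinds stood side by side near the 5′ end. Both palbociclib libraries listed a summit from 170076019 to 170076042, with scores of 52.9 and 63.55, and both activin libraries listed one from 170075419 to 170075422, with scores of 31.1 and 32.3. These lay 597 bp apart, 1.03 and 0.42 kb inside the span. At the 3′ end of PMEPA1 the palbociclib summits from 56222108 to 56222195 and the activin summits from 56222509 to 56222638 were 314 bp apart, with scores of 25.03 and 22.7 with palbociclib, against 21.2 and 14.3 with activin. Farther than 1 kb from the other treatment lay 4 regions, 2 of them at SMURF1, which had an activin region 13673 bp from the nearest palbociclib summit, at scores of 5.5 and 6.8, and a palbociclib region 1849 bp from the nearest activin summit, at scores of 14.7 and 14.5. The other two were a palbociclib region at LDLRAD4, from 13222876 to 13222965 and 2059 bp away, with scores of 11.5 and 3.33, and an activin region at SMAD6, from 66999885 to 67000021 and 1576 bp away, with scores of 7.43 and 4.26. The best palbociclib regions of the remaining loci were weaker than those of SKIL and PMEPA1: LDLRAD4 had one from 13540967 to 13541015 with scores of 17.3 and 8.83, BAMBI one from 28970250 to 28970360 with 3.86 and 6.27, and SMAD6 one from 66997623 to 66997652 with 3.39 and 5.16. SMAD7 had an activin region from 46475302 to 46475339 with scores of 5.48 and 5.80. Without peak widths, a summit listed at another position cannot be told apart from a loss of SMAD2 at the first.

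In each library taken alone, the share of the loci's summits among the strongest of their list could not be told from that of the whole list at these numbers. In the strongest 10% stood 5.00% (95% Clopper-Pearson interval 1.64 to 11.3) and 6.06% (2.26 to 12.7) of the loci's summits in palbociclib replicates 1 and 2, against 4.88% (1.34 to 12.02) and 7.59% (2.84 to 15.8) in activin replicates 1 and 2. The group means were 5.53% ± 0.75 with palbociclib and 6.24% ± 1.92 with activin (SD, n = 2 each), which overlapped (exact permutation p = 1). Over a whole list the share is 10% by construction, which lies above all 4 shares and inside all 4 intervals. The libraries were not tested together against 10%. These intervals cover counting error only.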

How the data were processed

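SMAD2-bound DNA from T47D cells was sequenced after an Ion Torrent fragment library preparation with PCR, per the labels' protocols. Per the submitters' processing notes, the tools were MACS2 2.0.9, Bowtie 1.1.0 and Picard and the build hg19; order and settings were not given in the sources used here. The authors deposited 1 list of summits per library, so peaks were read as called per library. The series holds 1 input, taken here as their control, which has no processed file analysed here. The score was read as the −log10 q of the authors' peak caller, because the lowest value is 1.31 and a q of 0.05 gives 1.30. It belongs to its own list.

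Summits of chromosomes 1 to 22 and X entered, were ranked by score in their list, and chained into regions at gaps of at most 200 bp. Groups were compared over libraries by exact two-sided permutation tests. Lists held no identical pair: 0% of summits shared position and score. Overlap code was tested on simulated data. The 10 members, lists and alternatives were chosen with earlier results of these data known. All members were named, with the recurrent region of best worst rank (the rank in the library where it ranks lowest) of each locus and the region of each treatment alone chosen likewise, 1 per locus; further regions named were chosen after their values were seen. Gene strands came from the RefSeq table, that of SKI from general knowledge. A comparison with other pathway genes and motifs at summits were planned and not run, since no hg19 annotation or genome was used here. Python 3.11.15, numpy 2.4.6, pandas 2.3.3, scipy 1.17.1 and matplotlib 3.10.9 were used.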

Additional observations from a re-analysis of the deposited data

How the results depend on the processing

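Values are log2 ratios of summits per 10000 listed unless said otherwise. SMAD6 and LDLRAD4 kept their direction under all alternatives, at −1.0 to −0.785 and 0.145 to 0.634 without each library, but LDLRAD4 was at 0.102 with scores of at least 5, where its groups overlapped. For the 10 loci together (0.03) the ratio was −0.0181 at equal list lengths, −0.0681 with scores of at least 5, −0.0974 without flank and −0.0348 to 0.0929 without each library, below 0 without palbociclib replicate 1 or activin replicate 2; the cause was not tested. Loci with a ratio above 0 numbered 5, and 9 in raw numbers, 3 at equal lengths, 3 without flank and 3 to 6 without each library. BAMBI turned to 0.263 in raw numbers, 0.0469 with scores of at least 5, 0.372 without flank and 0.0152 with the replicate block, with −0.314 to 0.345 without each library. PMEPA1 turned to 0.202 in raw numbers and 0.0394 with 50 kb flanks, SKI to −1.85 without flank and −0.0252 with 50 kb, SMURF1 to −0.684 without flank (0.0223 with scores of at least 5), SMURF2 to −0.114 with scores of at least 5, SMAD7 to 0.0931 in raw numbers (−0.858 without flank), and TGIF1 to 0.115 in raw numbers and 0.116 with scores of at least 5. PMEPA1 (−0.252 to 0.0755 without each library), SKI (−0.04 to 0.233), SKIL (−0.11 to 0.262) and SMURF1 (−0.303 to 1.07) changed direction without palbociclib replicate 1. Without flank SMURF2 had no ratio, as a library held no summit there. Recurrent regions numbered 27, and 17 without flank, 19, 39 and 25 at gaps of 100, 500 and 1000 bp, and 30 to 36 without each library. Palbociclib regions numbered 10, and 6 at equal lengths, 5 and 4 at gaps of 500 and 1000 bp, and 16 to 49 without each library; activin regions numbered 7, and 4 and 1 at those gaps, and 12 to 27. The ranges without a library follow from needing fewer libraries. The replicate block, which counts regions of 1 library absent from the same-numbered other one, gave means of 52.5 and 34; among the remaining ratios it turned none. Same numbers gave no sign of pairing (correlation of rank deviations −0.052 over 23476 regions). Strongest regions ranking better numbered 4, and 2 at equal lengths; 4 with scores of at least 5 and 4 to 7 without each library were added after seeing the data. The difference in the share of the strongest 10% was −0.706 points, and −2.06 to 0.652 without each library, above 0 without activin replicate 2. Distances to annotated starts on hg19 were not run. Unknown depth limits all counts.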
